A study of Schizosaccharomyces pombe with 16 samples.

Results

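The transcription units described here are the stretches of the coarsely tiled part of a fission yeast expression array whose RNA was bright in control cells. The array carries 174063 numbered tiling probes that alternate between the strands, so that probes of the same parity lie on the same strand. The last 27064 of them, up to number 174063, are spaced more widely than the others. In this sparse part, sense units are runs of 3 or more same-parity probes whose log2 control signal, averaged over 16 arrays and smoothed by a running median of 3 probes, was 7.9 or more. The rule gave 1532 sense units, of 4072 sense units on the whole array. The other 2540 lie in the dense part. The members were thus chosen by their control signal. The ratios of mutant over control that are described below played no part in the choice, although the control signal is the lower term of those ratios.

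RNA of 9 *Schizosaccharomyces pombe* mutants was set against RNA of control strains, depleted of rRNA, with mutant cDNA in Cy5 and control cDNA in Cy3 on each of the 16 arrays. *rrp6Δ* (strain p74, control p20), *red1Δ*, *cid14Δ* and *iss10Δ* (p934, p938 and p935, all with control p918), *pab2Δ* (p741, control p345), *sen1Δ* (p850, control p344) and *mtl1-17* (p936, control p931) had 2 arrays each, described as biological replicates, and *rmn1Δ* (p962, control p918) and *mmi1Δ mei4-P572* (p984, control p983) had 1. Cells were grown in YEA at 30 °C, except the temperature-sensitive *mtl1-17* cells and their *mtl1-flag* control, which were moved from 23 °C to 37 °C for 4 h. The *mmi1Δ* cells and their control both carried *mei4-P572*. The study's strain list gives a kanamycin cassette in place of each deleted gene and a *leu1* mutation in every strain, control strains included. It gives the *rrp6Δ* control a *ura4+* reporter that the *rrp6Δ* strain is not listed with. Each mutant was 1 strain, so the mutation and any other difference between that strain and its control cannot be told apart. The dyes were never swapped, and a dye bias of a probe is part of every ratio given here.

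The nuclear exosome is a 3′ to 5′ exonuclease complex that degrades faulty, short-lived and non-coding RNAs, and Rrp6 is a catalytic subunit found in its nuclear form. Helper complexes bring RNAs to it. In fission yeast the MTREC complex is built on the helicase Mtl1 and the zinc finger protein Red1, and contains the poly(A)-binding protein Pab2, the RNA-binding protein Rmn1, Iss10, and Mmi1, which binds meiotic mRNAs and marks them for removal during vegetative growth. Cid14 is the poly(A) polymerase of TRAMP, another helper complex of the exosome. Sen1 is an RNA and DNA helicase. The comparison asks how the steady level of the RNAs that control cells express changed when each of these factors was lost.

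The files pair no probe with a gene, a position or a strand, so each unit is named here by the number of its first probe, and no sequence is given. The 1532 units held 11407 probes, 42.1% of the sparse part. A unit had 3 to 36 probes, with a median of 6 and quartiles of 4 and 9, and 775 units lay on odd and 757 on even probe numbers. The mean log2 control signal of a unit ran from 6.91 to 15.04 with a median of 10.04, against a median of 5.35 for sparse probes outside the units. Single probes below the threshold could remain in a unit after smoothing. A threshold 0.1 higher would have removed 25 units, with mean signals of 7.22 to 11.8, and a threshold 0.1 lower would have added 30, with mean signals of 6.51 to 10.5. On the different arrays, 89.2% to 98.4% of the unit probes were well above background in the mutant channel and 90.6% to 97.0% in the control channel, and no probe was saturated.

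The value of a unit on an array is the mean log2 ratio of its probes, with the mean of the dense sense units of that array set to 0. Before this centring, the dense mean lay between -0.28 and 0.08 on the 16 arrays, lowest in *rrp6Δ*. The ratios of the probes of 1 unit had a median SD of 0.38. Repeated spots of 1 probe, of which 15 probes in the units had 6 on each array, had a median SD of 0.10. The median absolute difference between the replicate arrays of a mutant was 0.18 in *rrp6Δ*, 0.19 in *red1Δ*, 0.14 in *pab2Δ*, 0.13 in *mtl1-17*, 0.20 in *cid14Δ*, 0.30 in *iss10Δ* and 0.24 in *sen1Δ*.

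The replicate arrays of 6 mutants ranked the units in a like manner, and those of *iss10Δ* did not. Across the 1532 units, which are not independent and share an array, Pearson's r between the replicates was 0.89 in *rrp6Δ*, 0.87 in *red1Δ*, 0.89 in *pab2Δ*, 0.76 in *mtl1-17*, 0.63 in *cid14Δ* and 0.57 in *sen1Δ*. In *iss10Δ* it was -0.10. The *iss10Δ* arrays lay on different slides, the first with an array of *red1Δ* and the second with an array of *mtl1-17*. Over the units, the first *iss10Δ* array had an r of 0.61 with the *red1Δ* array of its slide and of 0.47 with the other *red1Δ* array, and the second *iss10Δ* array had -0.25 and 0.0044. Both mutants share the control strain p918, and the parts of slide and control in these values were not tested. The counts that follow are given for all 16 arrays, and those that move by over 1.5 times without the *iss10Δ* arrays are named.

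**Figure D1:**
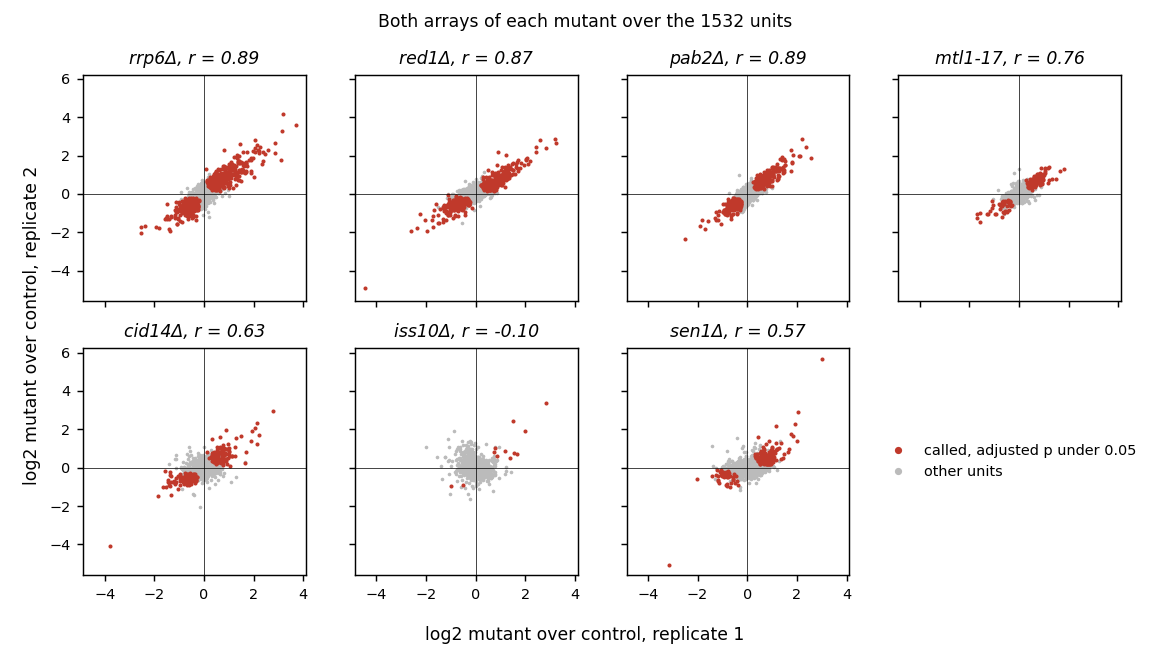
Log2 ratio of mutant over control of each of the 1532 units on replicate 2 (vertical axis) against replicate 1 (horizontal axis) in the 7 mutants with 2 arrays, with called units in red and the others in grey. The clouds are drawn out along the diagonal in *rrp6Δ*, *red1Δ* and *pab2Δ*, with r of 0.89, 0.87 and 0.89, and round in *iss10Δ*, with r of -0.10.

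The deletions themselves were visible among the units. For each mutant the run of probes that fell farthest below all other mutants was located on the whole array. In 5 mutants this run lay inside a sparse sense unit. In *red1Δ* the 5 probes 171861 to 171869 in unit 171859 had mean log2 ratios of -6.43 and -7.03 on its arrays, against -0.30 to 0.96 on the 14 arrays of the other mutants. The whole unit of 7 probes was higher in *rrp6Δ* (1.13 and 1.00) and *pab2Δ* (0.69 and 1.00). In *cid14Δ* the 4 probes 152864 to 152870 in unit 152856 had -7.62 and -8.06, against -0.22 to 0.41 on the other arrays. In *sen1Δ* the 8 probes 164627 to 164641 in unit 164623 had -4.50 and -7.43, against -0.25 to 0.32 on the other arrays. None of the mutant spots of *red1Δ* and *sen1Δ* there was well above background, and 1 of 8 was in *cid14Δ*, so these values are bounds. The control was at least 30.6-fold brighter in *red1Δ*, at least 70.2-fold in *cid14Δ* and at least 19.3-fold in *sen1Δ*.

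The losses of *rrp6Δ* and *iss10Δ* took up only part of their units. The *rrp6Δ* arrays had -7.29 and -6.51 over the 2 probes 154020 and 154022 in unit 154012, against -0.77 to 0.80 on the other arrays, and the control was at least 71.0-fold brighter. The whole unit of 9 probes fell by 2.01 (adjusted p = 3.17e-06, limma), but its median probe stood at 0.03. The *iss10Δ* arrays had -5.85 and -5.98 over the 3 probes 162020 to 162024, against -0.53 to 0.30 on the other arrays, and the control was at least 16.9-fold brighter. They open unit 162020, which has 19 probes and fell by 0.98 as a whole. Along the probe numbers the 5 runs follow the order *cid14*, *rrp6*, *iss10*, *sen1*, *red1*, which is also the order of these genes on chromosome I in the RefSeq annotation. The runs lost in *pab2Δ*, *rmn1Δ* and *mmi1Δ mei4-P572* lay in the dense part, and in *mtl1-17*, which is not a deletion, the lowest run was 2 dense probes at -3.82 and -3.20, where the other arrays ran from -0.65 to 3.76. The identity of the 5 units as the deleted genes rests on this loss and order, since no file names them.

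**Figure D2:**
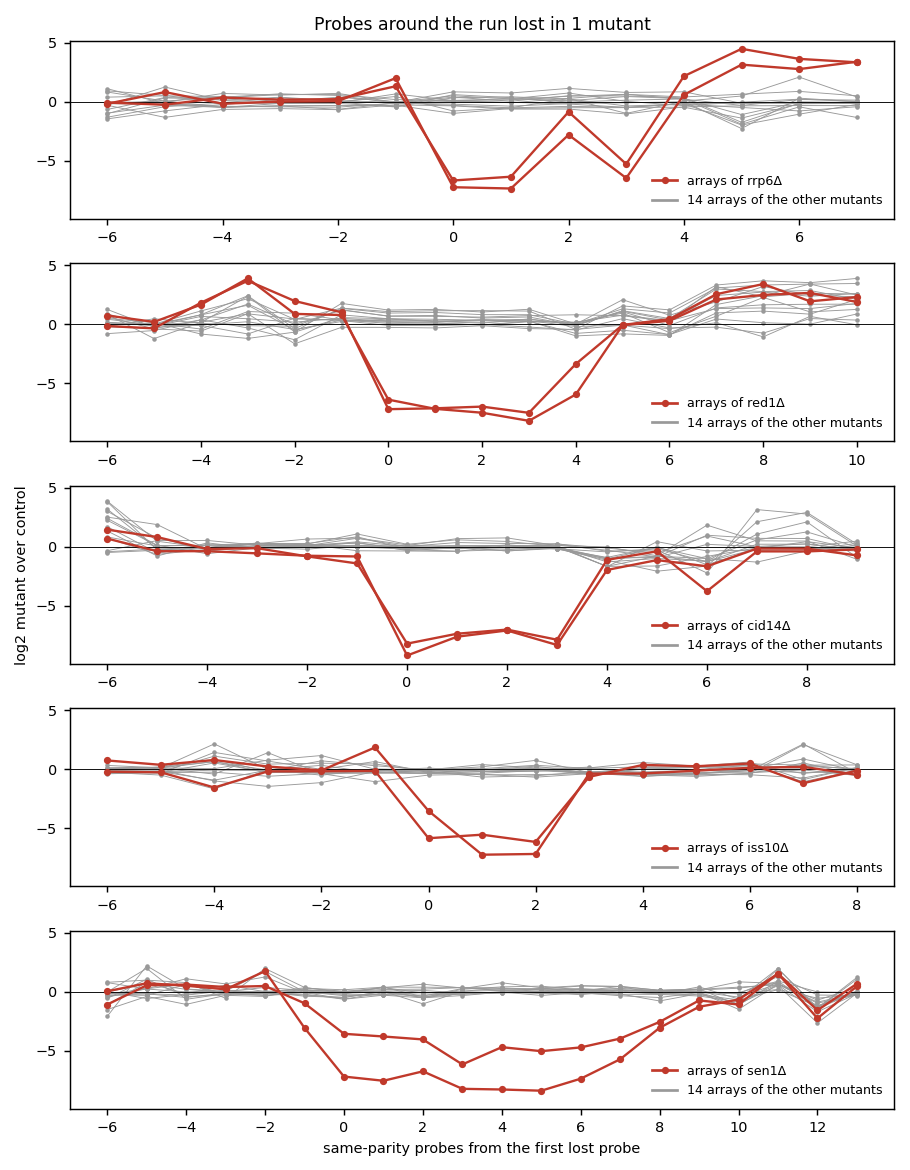
Log2 ratio of mutant over control (vertical axis) of single probes around the lost run, against the number of same-parity probes from the first lost probe (horizontal axis), in *rrp6Δ*, *red1Δ*, *cid14Δ*, *iss10Δ* and *sen1Δ*, with the arrays of that mutant in red and the 14 other arrays in grey. The red lines drop away from the grey ones over 2 to 8 probes, to means between -4.50 and -8.06.

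Units were called with limma at an adjusted p under 0.05 (Benjamini-Hochberg over all 7445 sense and opposite-strand features of both array parts). The number called differed widely between mutants, and at least 1 mutant called 1094 of the 1532 units (71.4%), against 78.9% of all features. In *rrp6Δ*, where that nuclear subunit is missing, 464 units (30.3%) were higher and 248 (16.2%) lower, against 35.3% and 18.5% of all features. In *red1Δ*, 280 (18.3%) were higher and 239 (15.6%) lower, against 22.2% and 16.7% of all features. In *pab2Δ*, 219 (14.3%) were higher and 165 (10.8%) lower, against 17.2% and 18% of all features. These shares are near those of all features or below them.

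The remaining mutants called fewer units. In *mtl1-17*, 90 (5.87%) were higher and 44 (2.87%) lower, against 12.3% and 4.55% of all features. In *cid14Δ*, 124 (8.09%) were higher and 83 (5.42%) lower, against 10.2% and 10.6% of all features. In *sen1Δ*, 130 (8.49%) were higher and 45 (2.94%) lower, against 12.4% and 3.43% of all features. In *mmi1Δ mei4-P572*, with 1 array, 32 (2.09%) were higher and 14 (0.914%) lower, against 2.5% and 1.54% of all features. In *iss10Δ*, 10 were higher and 2 lower, against 0.631% and 0.094% of all features, and in *rmn1Δ*, with 1 array, 1 was higher and 1 lower, against 0.215% and 0.0403% of all features. For the mutants with 1 array, the spread is taken from the others. The few calls do not show that RNA was unchanged.

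**Figure D3:**
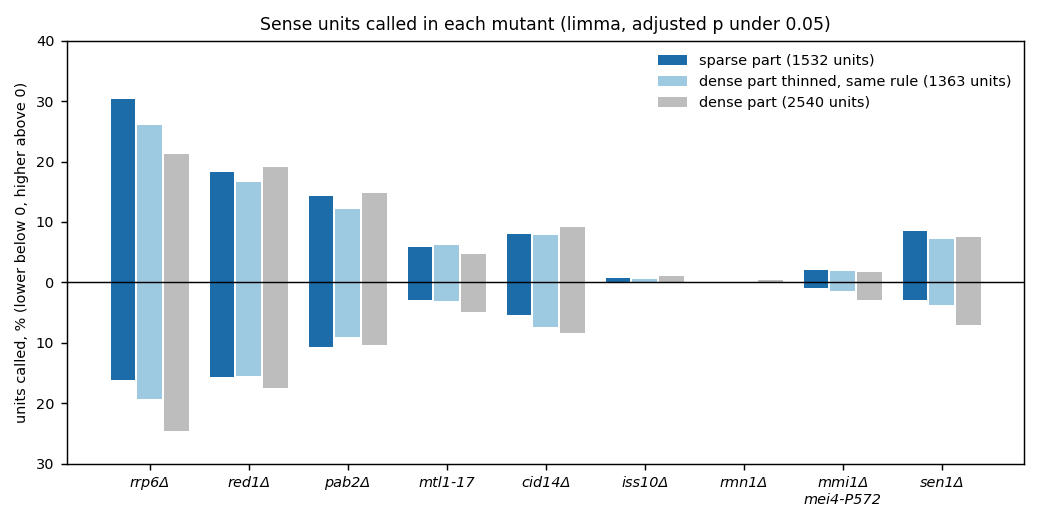
Share of sense units called higher (above 0) or lower (below 0) in each mutant (horizontal axis), in percent, for the sparse part, for the dense part thinned to the sparse spacing and for the dense part. *rrp6Δ* has the tallest bars, with 30.3% of the sparse units higher and 16.2% lower, and *iss10Δ* and *rmn1Δ* have almost none.

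The balance of higher and lower units depends on where 0 is set. Without centring, *rrp6Δ* had 279 units higher and 505 lower, and *sen1Δ* had 71 higher and 69 lower. With the median of all probes of an array at 0, *sen1Δ* had 31 higher and 190 lower, while *red1Δ* had 429 higher and 108 lower. The counts above are therefore relative to the dense sense units. The counts also moved with slide in the model. As a fixed term, slide left 1 residual degree of freedom. Then *red1Δ* had 104 calls, *mtl1-17* and *iss10Δ* had 0 and *cid14Δ* had 1, while *mmi1Δ mei4-P572*, with 1 array, had more. The value of a mutant is there the one fitted for a reference slide, not the mean of its arrays. Unit 159703 in *sen1Δ*, for example, took the value of replicate 2 (-0.58). Lost power, this change of the tested value and a part of the slide cannot be told apart there. With slide as a random block, *rrp6Δ* had 736 calls (712 without slide), *red1Δ* 490 (519) and *pab2Δ* 452 (384). In the same order, *mtl1-17* had 166 (134), *cid14Δ* 230 (207) and *sen1Δ* 166 (175). With 1 array left out, the count was 384 to 484 in *rrp6Δ*, 170 to 307 in *red1Δ*, 125 to 159 in *pab2Δ*, 30 to 42 in *mtl1-17*, 48 to 86 in *cid14Δ* and 16 to 140 in *sen1Δ*.

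In *rrp6Δ*, unit 173794, of 6 probes, had log2 signals of 13.6 and 12.1 in the *rrp6Δ* channel and 10.1 and 8.74 in the control channel. Its log2 ratios were 3.70 and 3.62, above the range of -0.29 to 1.20 on the 14 other arrays, and the fitted change was 3.66 ± 0.16 (SE, adjusted p = 7.95e-09). *red1Δ* had -0.29 and 0.33 there and was not called, while *pab2Δ* (0.59 and 0.42), *mtl1-17* (0.74 and 1.04), *cid14Δ* (0.75 and 1.20) and *mmi1Δ mei4-P572* (0.97) were called higher by far less. Unit 149233, of 4 probes, had 3.13 and 3.29 in *rrp6Δ* (3.21 ± 0.15, adjusted p = 8.62e-09). *red1Δ* (1.52 and 1.24), *pab2Δ* (1.33 and 1.83) and *mmi1Δ mei4-P572* (2.16) also called it higher, and it lay between -0.52 and 0.19 on the other arrays.

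Unit 148861, of 3 probes, was among the 3 highest in *rrp6Δ*, *red1Δ* and *pab2Δ* alike. Its log2 ratios were 3.17 and 4.15 in *rrp6Δ*, 2.58 and 2.80 in *red1Δ* and 2.57 and 1.86 in *pab2Δ*. They were 1.05 and 1.34 in *mtl1-17*, 0.63 and 1.06 in *cid14Δ*, 0.77 and 1.06 in *iss10Δ*, 1.33 in *rmn1Δ*, 0.71 in *mmi1Δ mei4-P572* and 0.24 and -0.42 in *sen1Δ*. It passed the test in the first 5 of these mutants. The *rrp6Δ* channel had signals of 14.01 and 13.1, against 11.04 and 9.21 in the control channel.

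Some units fell in *rrp6Δ*. Unit 173128, of 3 probes, had -2.52 and -2.03 in *rrp6Δ*, below the range of -1.13 to 0.88 on the other arrays (-2.28 ± 0.25, adjusted p = 9.28e-06). Unit 158832, also of 3 probes, had -2.55 and -1.70 (-2.13 ± 0.22, adjusted p = 5.06e-06), below -1.32 to 0.30 elsewhere. Both fell in *cid14Δ* as well, with -1.07 and -1.13 for unit 173128 and -1.32 and -0.46 for unit 158832.

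In *red1Δ*, unit 161356, of 5 probes, had 3.19 and 2.85 (3.02 ± 0.15, adjusted p = 5.01e-08). It had 2.60 and 2.30 in *rrp6Δ*, 1.20 and 1.41 in *mtl1-17*, 1.19 and 0.89 in *iss10Δ* and 1.23 in *mmi1Δ mei4-P572*, all called, and 0.60 and 0.67 in *pab2Δ*, also called. It was not called in *cid14Δ* (-0.11 and -0.59), *rmn1Δ* (0.09) or *sen1Δ* (-0.27 and -0.54). Unit 172853, of 3 probes, had 3.23 and 2.67 in *red1Δ* (2.95 ± 0.17, adjusted p = 2.13e-07) and was above 0 on all 16 arrays, the lowest being 0.38.

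Apart from the unit of the deleted gene, unit 151835 fell most in *red1Δ*, with -2.60 and -1.94 (-2.27 ± 0.20, adjusted p = 4.28e-06). It fell in *pab2Δ* as well, with -1.71 and -1.81, and in *mtl1-17*, with -1.07 and -0.72, but was higher in *cid14Δ*, with 0.63 and 0.80, and in *sen1Δ*, with 1.00 and 1.06. Unit 160275, of 8 probes, had -2.38 and -1.80 in *red1Δ* (-2.09 ± 0.34, adjusted p = 4.85e-04) and was called in no other mutant. Its arrays disagreed elsewhere, as in *iss10Δ* with -1.22 and 0.57.

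In *pab2Δ*, unit 167458 rose by 2.52 ± 0.23 (2.20 and 2.84, adjusted p = 1.01e-05). *red1Δ* had 2.45 on both arrays, *rrp6Δ* 1.48 and 1.17 and *iss10Δ* 1.55 and 0.79, all called. Unit 169681 had 2.38 and 2.43 in *pab2Δ* (2.40 ± 0.28, adjusted p = 6.66e-05), 3.11 and 1.79 in *rrp6Δ* and 1.24 and 2.04 in *red1Δ*, and -0.44 to 0.69 in the remaining mutants. The unit that fell most was 151573, a long one of 15 probes, with -2.50 and -2.33 in *pab2Δ* (-2.42 ± 0.20, adjusted p = 4.73e-06). It fell in *mtl1-17* (-1.25 and -1.04) and rose in *sen1Δ* (1.92 and 2.26) and *mmi1Δ mei4-P572* (1.24). Unit 173836 fell in *pab2Δ* (-1.89 and -1.66, adjusted p = 4.44e-03) and rose in *rrp6Δ* (0.79 and 2.31). The fall was not particular to *pab2Δ*. Without being called, the unit was below 0 in *red1Δ* (-0.55 and -1.54), *iss10Δ* (-1.04 and -1.38) and *sen1Δ* (-1.31 and -0.61). The same held in *rmn1Δ* (-1.29) and *mmi1Δ mei4-P572* (-1.61), while *cid14Δ* had -1.12 and 0.66. Without either *pab2Δ* array it no longer passed the test.

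The changes in *mtl1-17* were smaller. Its 5th and 95th percentiles over the units were -0.39 and 0.54, against -0.72 and 0.93 in *red1Δ* and -0.72 and 1.22 in *rrp6Δ*. Unit 161356 rose by 1.31 (adjusted p = 1.04e-04). Unit 151662, of 3 probes, fell by 1.52 ± 0.15 (-1.57 and -1.48, adjusted p = 3.72e-05), alongside -1.49 and -1.53 in *red1Δ* and -1.30 and -1.27 in *pab2Δ*, whereas *rrp6Δ* had 0.66 and 0.65 and was called higher. Unit 173837 fell in *mtl1-17* (-1.70 and -1.03, adjusted p = 7.24e-03) and was not called without its replicate 1. Unit 173836 also fell in *mtl1-17* (-1.68 and -1.27, adjusted p = 0.0221), a call that was lost without either of its arrays.

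In *cid14Δ*, unit 173938 rose by 2.86 ± 0.44 (2.79 and 2.94, adjusted p = 1.03e-03). Only 62.5% of its control spots on the *cid14Δ* arrays were well above background, with signals of 7.58 and 6.06, against 10.3 and 9.02 in the *cid14Δ* channel. Unit 173968 had 2.13 and 2.32 (2.23 ± 0.20, adjusted p = 2.13e-05), and rose in *rrp6Δ* (1.90 and 1.07) and *red1Δ* (0.87 and 1.52) and fell in *pab2Δ* (-0.53 and -0.82). Unit 172853 had 2.07 on both *cid14Δ* arrays (adjusted p = 1.70e-05). Unit 160025 fell in *cid14Δ* (-1.34 and -1.40, adjusted p = 9.59e-05), but was higher in *rrp6Δ* (0.53 and 0.73) and in *sen1Δ* (1.02 and 0.86). Unit 148645 fell in *cid14Δ* too (-1.87 and -1.50, adjusted p = 1.02e-04), with 60% of its mutant spots and 60% of its control spots well above background. Its control signals there were 8.36 and 7.16. It was also called lower in *rrp6Δ* (-1.11 and -0.40), *red1Δ* (-1.33 and -1.49) and *mmi1Δ mei4-P572* (-2.16), and higher in *sen1Δ* (0.61 and 0.88).

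In *sen1Δ* the same unit 173938 had the highest value, 3.01 and 5.69 (4.35 ± 0.44, adjusted p = 2.17e-04). The *sen1Δ* channel had signals of 9.16 and 11.2 there, against 6.28 and 5.62 in the control channel, where 50% of the spots were well above background. Unit 151573 rose by 2.09 ± 0.20 (adjusted p = 1.03e-04). Unit 148656, of 6 probes, had 2.04 and 2.90 (2.47 ± 0.57, adjusted p = 0.0166), against -1.96 and -1.91 in *red1Δ*, and was not called without either *sen1Δ* array. Relative to the dense sense units, 45 units (2.94%) were lower in *sen1Δ*, against 3.43% of all features. After the unit of the deleted gene, the lowest were units 159703 and 170525, with fitted changes of -1.29 and -0.96. Unit 159703 had -2.01 and -0.58 (adjusted p = 0.0136), and unit 170525 had -1.15 and -0.78 (adjusted p = 0.0106). Both calls were lost without replicate 1. Unit 170525 was called higher in 5 other mutants, with 2.13 and 1.59 in *red1Δ* and 1.68 and 0.73 in *iss10Δ*. Without replicate 1, *sen1Δ* called 16 units in place of 175, and without replicate 2 it called 140.

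In *iss10Δ*, unit 162013 stood far above the rest. Its 3 probes had 2.83 and 3.35 (3.09 ± 0.16, adjusted p = 1.00e-06), against -0.91 to 0.40 on the 14 other arrays, and signals of 13.5 and 15.2 in the *iss10Δ* channel, against 10.6 and 11.8 in the control channel. This unit ends 3 probe numbers before the lost run of that mutant, on probes of the other parity. Of the other named units of *iss10Δ*, unit 162020, which holds its lost run, was called in this mutant alone. Units 151524 and 151566 were higher in 9 and 8 mutants, and unit 161202 (-0.52 and -0.88, adjusted p = 0.0309) was lower in 6.

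*rmn1Δ* and *mmi1Δ mei4-P572* had 1 array each and no replicate check. In *rmn1Δ*, unit 151739 had -2.36 (adjusted p = 0.0347), and was also called lower in *pab2Δ* (-1.82 and -1.38) and *red1Δ* (-0.74 and -0.85). The *rmn1Δ* call was lost under 8 of the alternatives, among them no centring (adjusted p = 0.0673, limma) and slide as a fixed term (-0.18, adjusted p = 0.914). In *mmi1Δ mei4-P572*, unit 164521 had 2.17 (adjusted p = 4.82e-04), against -0.03 to 1.34 on the 15 other arrays, and was also called in *rrp6Δ*, *red1Δ*, *pab2Δ* and *cid14Δ*. Unit 149233 had 2.16 (adjusted p = 8.93e-05). Unit 148645 had -2.16 (adjusted p = 4.82e-04). Unit 162469 had -1.98 (adjusted p = 0.0145) and was called in no other mutant, with 33.3% of its mutant spots well above background. Without the *iss10Δ* arrays, *mmi1Δ mei4-P572* called 80 units and *rmn1Δ* 6.

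**Figure D4:**
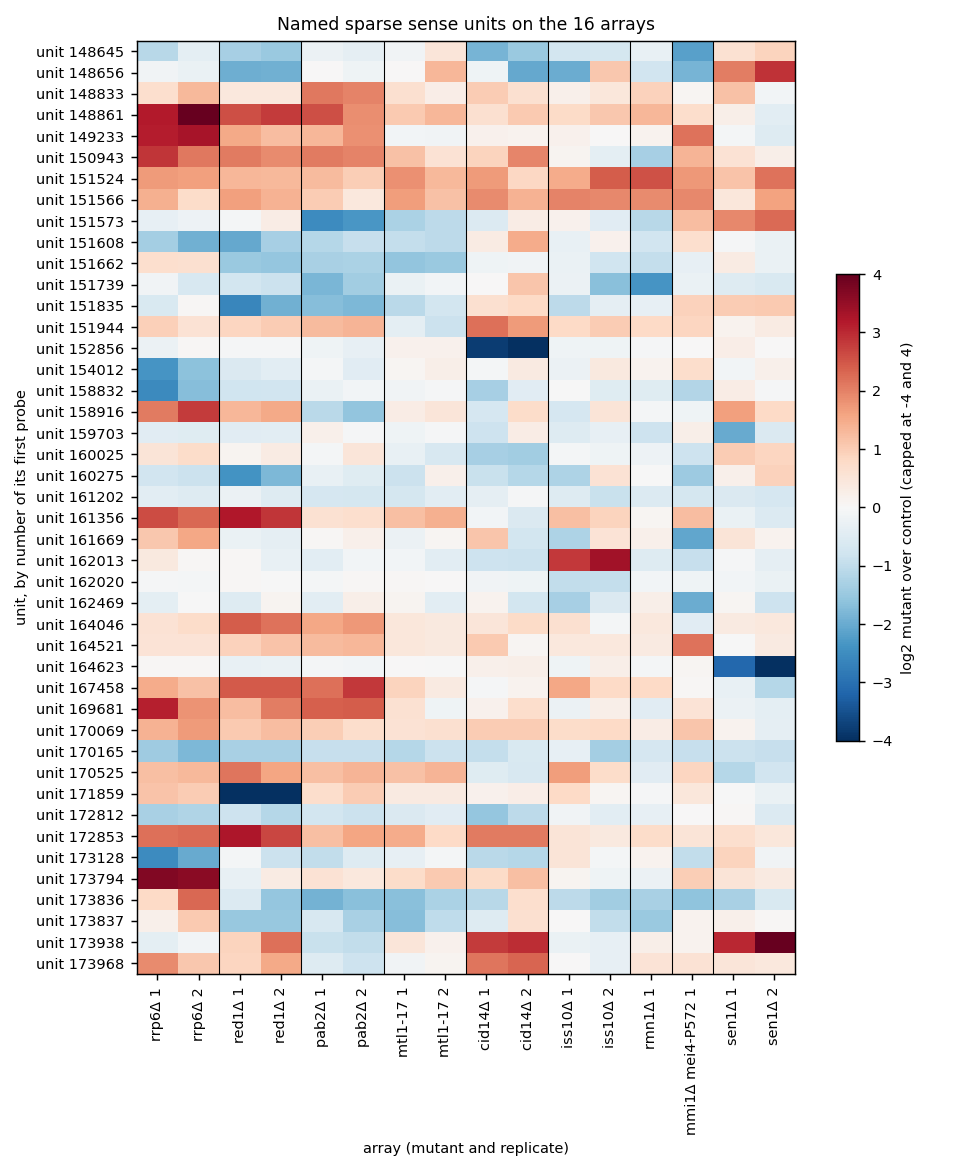
Log2 ratio of mutant over control of the 44 named units (rows, by first probe number) on the 16 arrays (columns, by mutant and replicate), on a colour scale capped at -4 and 4. Unit 148861 is red across *rrp6Δ*, *red1Δ* and *pab2Δ*, unit 151524 is red on all 16 arrays, and the units with a lost run are blue in 1 mutant each, palest for unit 162020 in *iss10Δ*.

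Of the 1532 units, 362 (23.6%) were higher in 1 mutant, 153 in 2, 86 in 3 and 92 (6.01%) in at least 4, against 24.9% of all features in 1 mutant and 9.52% in at least 4. Lower calls were made in 1 mutant for 292 units (19.1%), in 2 for 126, in 3 for 61 and in at least 4 for 26 (1.70%), against 19.4% of all features in 1 mutant and 3.69% in at least 4. In 104 units (6.79%) higher calls in some mutants met lower calls in others, against 12.6% of all features. None of the shares given was above that of all features, and calls in 2 or in 3 mutants were not counted over all features. The mean of the 9 mutants was above 0 in 423 units (27.6%) and below 0 in 278 (18.1%) by limma, against 30.8% and 20.9% of all features.

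Unit 151524 was called higher in all 9 mutants. It is a run of 19 probes and, at a mean log2 control signal of 14.5, one of the brightest units. Its log2 ratios were 1.69 and 1.64 in *rrp6Δ*, 1.32 and 1.29 in *red1Δ*, 1.25 and 0.99 in *pab2Δ*, 1.81 and 1.31 in *mtl1-17*, 1.71 and 0.83 in *cid14Δ*, 1.49 and 2.42 in *iss10Δ*, 2.56 in *rmn1Δ*, 1.73 in *mmi1Δ mei4-P572* and 1.15 and 2.16 in *sen1Δ*. The call was lost in *rmn1Δ* with the median over the probes (2.69), in *iss10Δ* without replicate 2 and in *mtl1-17* without replicate 1. Slide as a fixed term also removed it in these mutants. The neighbouring unit 151566, at 14.6, had 0.44 to 1.99 on the 16 arrays and was called in 8 mutants, *rmn1Δ* being the exception (1.89). As the dyes were not swapped, a rise shared by all mutants and a dye bias of these bright probes cannot be told apart.

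Unit 170069, of 24 probes, was higher in 7 mutants, with 1.39 and 1.69 in *rrp6Δ*, 1.04 and 1.23 in *red1Δ*, 1.02 on both arrays in *cid14Δ* and 1.11 in *mmi1Δ mei4-P572*. It was not called in *rmn1Δ* (0.29) or *sen1Δ* (0.13 and -0.35). Unit 170165, of 3 probes, was lower on all 16 arrays, between -1.81 and -0.31, and was called in 6 mutants. Unit 172812 was lower in 5 mutants, with -1.31 and -1.21 in *rrp6Δ* and -1.54 and -1.03 in *cid14Δ*. Unit 161202 was lower in 6, between -0.88 and -0.04 on the 16 arrays, but its median probe averaged 0.01 over the mutants.

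Overlaps of calls were counted between mutants whose control strains differ (p20, p918, p345, p931 and p344), though the dyes do not. Of the 464 units higher in *rrp6Δ* and the 280 higher in *red1Δ*, 192 were shared, 41.4% of the *rrp6Δ* list and 68.6% of the *red1Δ* list, against 46.8% and 74.5% over all features. Another 12 units higher in *rrp6Δ* were lower in *red1Δ*, a number that was not counted over all features. Of the 90 units higher in *mtl1-17*, 81 (90%, and 17.5% of the *rrp6Δ* list) were higher in *rrp6Δ*, against 90.5% and 31.6% over all features. For *pab2Δ* and *rrp6Δ* the shared number was 146, 66.7% of the *pab2Δ* list and 31.5% of the *rrp6Δ* list, against 70.7% and 34.5% over all features. For *pab2Δ* and *red1Δ* it was 156, 71.2% of the *pab2Δ* list and 55.7% of the *red1Δ* list, against 73.8% and 57.3%. Of the 130 units higher in *sen1Δ*, 59 (45.4%, and 12.7% of the *rrp6Δ* list) were higher in *rrp6Δ*, against 47.2% and 16.6% over all features. Differences between these overlaps were not tested.

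A set of 53 units (3.46%) was higher in *rrp6Δ*, *red1Δ*, *pab2Δ* and *mtl1-17* together, and 10 (0.653%) were lower in all 4, against 6.29% and 1.5% of all features. The 53 units had median changes of 1.27 in *rrp6Δ*, 1.14 in *red1Δ*, 0.83 in *pab2Δ* and 0.79 in *mtl1-17*, values that the choice of the units fixes. In mutants that did not choose them, the medians were 0.35 in *cid14Δ*, 0.31 in *mmi1Δ mei4-P572*, 0.22 in *rmn1Δ*, 0.19 in *iss10Δ* and 0.03 in *sen1Δ*. Over all 1532 units the median lay between -0.05 and 0.10 in the 9 mutants. *cid14Δ*, *rmn1Δ* and *iss10Δ* share their control strain with *red1Δ*. Another 239 units were called higher in *rrp6Δ* and in none of the other 3 mutants, a number that was not counted over all features. Their median changes of 0.59 in *rrp6Δ* and 0.03 in *red1Δ* likewise follow from the choice. These 239 units had a median of 7 probes, against 5 in the 53 units.

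Differences between mutants were tested directly in 5 pairs. Between *red1Δ* and *rrp6Δ*, 72 units were higher and 198 lower in *red1Δ*, against 6.11% and 18% of all features, that is 4.70% and 12.9% of the units. Between *cid14Δ* and *rrp6Δ*, 104 were higher and 249 lower in *cid14Δ* (6.79% and 16.3%), against 8.01% and 25.8% of all features, and between *sen1Δ* and *rrp6Δ*, 174 were higher and 270 lower in *sen1Δ* (11.4% and 17.6%), against 16.3% and 22.2%. *mtl1-17* and *red1Δ* differed in fewer units, 18 higher and 30 lower in *mtl1-17* (1.17% and 1.96%), against 1.41% and 3.33% of all features. *pab2Δ* and *red1Δ* differed in 30 higher and 15 lower in *pab2Δ* (1.96% and 0.979%), against 2.08% and 2.57%.

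The direction of these splits turned with the centring. Without centring, 191 units were higher and 105 lower in *red1Δ* than in *rrp6Δ*, 252 and 138 in *cid14Δ*, and 274 and 200 in *sen1Δ*. With the median of all probes at 0 the first 2 pairs turned likewise (184 and 83, 191 and 139), and *sen1Δ* kept its direction (98 and 352). One slide carried replicate 2 of *rrp6Δ*, *red1Δ* and *pab2Δ*. Within it, the median difference over the 1532 units was -0.09 between *red1Δ* and *rrp6Δ* and -0.06 between *pab2Δ* and *red1Δ*, against -0.12 and -0.02 over all arrays. With 1 array left out, the calls fell to 59 to 187 between *red1Δ* and *rrp6Δ*, 6 to 13 between *mtl1-17* and *red1Δ*, 6 to 17 between *pab2Δ* and *red1Δ* and 207 to 280 between *cid14Δ* and *rrp6Δ*, and those between *sen1Δ* and *rrp6Δ* to 289 to 365. Without the *iss10Δ* arrays, which enter only the estimate of the spread, *mtl1-17* and *red1Δ* differed in 79 units and *pab2Δ* and *red1Δ* in 75.

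Beyond the deleted genes, some of the leading differences were of units that changed far more in 1 member of the pair. Others, such as units 158916 and 151608, were called in both members, in opposite directions. Unit 158916, of 4 probes, had -1.07 and -1.57 in *pab2Δ*, against 1.32 and 1.52 in *red1Δ*, and 2.06 and 2.79 in *rrp6Δ*. Unit 164046, of 3 probes, had 2.43 and 2.17 in *red1Δ*, against 0.57 and 0.72 in *rrp6Δ*, and *mtl1-17* had 0.45 and 0.38. Unit 148833 had 2.12 and 1.99 in *pab2Δ*, against 0.43 and 0.42 in *red1Δ*. Unit 151608 had 0.34 and 1.47 in *cid14Δ*, against -1.37 and -1.92 in *rrp6Δ*.

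The length of a unit went with the direction of change in *rrp6Δ*, and lower calls were fewer among long units in other mutants too. Of the 302 units with 3 probes, 81 (26.8%) were higher and 80 (26.5%) lower in *rrp6Δ*, and of the 311 units with 11 or more probes, 114 (36.7%) were higher and 19 (6.11%) lower. The median change in *rrp6Δ* was -0.05 in the short units and 0.20 in the long ones, which had medians of 0.17 and 0.25 on its arrays. In *red1Δ* and *pab2Δ* the higher share ran the other way. In *red1Δ*, 23.2% of the short and 12.5% of the long units were higher, and in *pab2Δ* 19.2% and 9.0%. Lower calls were fewer among long units in *pab2Δ* (15.9% of the short, 5.79% of the long), while *red1Δ* had 17.9% and 15.4%. They were also fewer in *mtl1-17* (6.29% and 0.64%), *cid14Δ* (9.60% and 1.93%), *sen1Δ* (5.96% and 0.32%) and *mmi1Δ mei4-P572* (2.65% and 0%). Higher shares there were 6.95% and 4.18% in *mtl1-17* and 10.9% and 4.82% in *cid14Δ*. In *sen1Δ* they were 7.62% and 7.40%, and in *mmi1Δ mei4-P572* 1.32% and 2.25%. Short units average fewer probes, and length was itself set by the control signal, so no test is given.

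**Figure D5:**
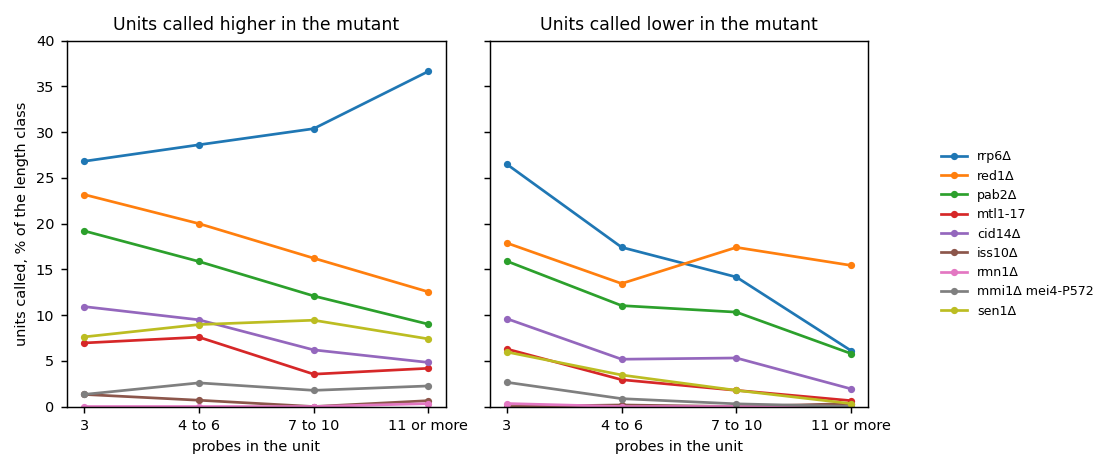
Share of units called higher (left) or lower (right), in percent, in 4 classes of length (horizontal axis, probes per unit), with a line for each mutant. In *rrp6Δ* the higher share is 26.8% in units with 3 probes and 36.7% in units with 11 or more, while the lower share is 26.5% and 6.11%.

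Calls were also read by control signal. Across the quartiles of control signal, cut at 9.35, 10.04 and 10.8, the higher share in *rrp6Δ* was 31.9%, 33.4%, 28.2% and 27.7% from dim to bright, and the lower share 16.2%, 13.6%, 16.7% and 18.3%. In *pab2Δ* the higher share was 20.6% in the dimmest quartile and 11.5% in the brightest, and in *cid14Δ* 11.5%, 6.01%, 6.27% and 8.62%. In *sen1Δ* the brightest quartile had the most higher calls, 12.8%, against 6.53% to 8.09% in the other 3.

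RNA of the strand opposite a unit moved more than the unit in several mutants. It could be read for 1076 units. In *rrp6Δ* the opposite strand was higher in 542 of them (50.4%) and the unit in 328 (30.5%), with both higher in 157, and the mean change was 0.53 on the opposite strand and 0.16 in the units. In *mtl1-17* 203 opposite strands (18.9%) and 56 units (5.20%) were higher, and in *sen1Δ* 198 (18.4%) and 98 (9.11%). In *red1Δ* the numbers were 281 and 167. Lower calls outnumbered higher ones on the opposite strand in *pab2Δ* (230 lower, 212 higher) and *cid14Δ* (133 and 100). In the units the numbers were 97 lower and 120 higher in *pab2Δ* and 46 and 70 in *cid14Δ*. In *iss10Δ* none of the opposite strands and 6 of the units were called higher by limma. Opposite strands are dim in the control by construction of the units, and what part of the contrast this sets was not tested.

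Sparse units were also set against those of the dense part. In *rrp6Δ* the higher share was 30.3% in the sparse part and 21.3% in the dense part, and the lower share was 16.2% and 24.6%. These differences were not tested within this mutant. In *red1Δ* the dense part had 19.1% higher and 17.4% lower, in *pab2Δ* 14.7% and 10.4%, in *mtl1-17* 4.65% and 4.88%, in *cid14Δ* 9.25% and 8.31%, in *sen1Δ* 7.52% and 7.01%, in *mmi1Δ mei4-P572* 1.77% and 2.99%, in *iss10Δ* 1.14% and 0.118% and in *rmn1Δ* 0.354% and 0.0394%, so that lower calls were more frequent there than among the sparse units in 6 of the 9 mutants. The mean share of lower calls was 2.31 percentage points smaller in the sparse part (exact two-sided sign-flip p = 0.0312), and that of higher calls 0.93 points larger, above 0 in 4 of 9 mutants (exact p = 0.602). When the dense part was thinned to the sparse spacing and called by the same rule, its 1363 units had 26.0% higher and 19.4% lower in *rrp6Δ*, and over the mutants the shares of the sparse units differed from theirs by 1.08 points for higher calls (7 of 9 mutants, exact p = 0.0391) and -0.51 points for lower calls (exact p = 0.281). Over the 9 mutants, the mean of the sparse units lay 0.04 above that of the dense units (-0.0020 to 0.15) and was above it in 8 of 9 mutants, p = 0.00781 (exact two-sided sign-flip test over the mutants; the smallest p the design allows is 0.00391). This test takes the 9 mutants as independent, although *red1Δ*, *cid14Δ*, *iss10Δ* and *rmn1Δ* share a control strain and 5 of the 9 slides hold arrays of several mutants, so its p-values may be too small. Against the thinned units the difference was 0.02, above 0 in 8 of 9, exact p = 0.0117. The first difference missed the threshold with normexp correction and loess (0.02, exact p = 0.0859). It also did so with the median over the probes of a unit (0.02, exact p = 0.156) and without replicate 2 of *iss10Δ* (0.04). With another 0, the mean of the sparse units is not a difference from the dense units. That mean was -0.01 without centring (exact p = 0.480) and 0.05 with the median of all probes at 0 (exact p = 0.227). The first difference averages *rrp6Δ*, with means of 0.13 and 0.16 on its arrays, and mutants such as *cid14Δ*, with 0.0021 and 0.011.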

How the data were processed

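The authors deposited 1 scanner file for each of the 16 arrays. The processed intensity of each channel in these deposited files is background-subtracted and dye-normalized by Agilent Feature Extraction, of which the file headers give version 10.7.3.1 on 15 arrays and 10.7.1.1 on 1. The deposited log10 ratio and its p-value are per spot, by the same software. The deposited series table of log2 ratios equals the log10 ratio turned to log2, with 0 where that p-value is above 0.05, within 0.01 for at least 98.2% of probes on 15 arrays and 77.0% on replicate 2 of *sen1Δ*; it was used as an alternative only.

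Here, log2 ratios of the processed signals (mutant over control) were averaged over the probes of a unit, leaving out the software's outlier spots (5 to 258 unit probes per array), and centred per array on the mean of the dense sense units. In the dense part, a unit needed 6 probes and a running median over 5. The opposite strand of a unit was kept where at least 3 probes could be read. The number of arrays limits the precision. limma 3.58.1 (lmFit, eBayes; R 4.3.3) fitted 9 mutant means to 7445 features, with 7 residual degrees of freedom, and p-values were adjusted by Benjamini-Hochberg in each comparison. Means over units were compared by an exact two-sided sign-flip test (Python 3.11.15, numpy 2.4.6, pandas 2.3.3, scipy 1.17.1). The finding of units and the limma fit were tested on simulated data, the fit with arrays that were independent of each other. The sign-flip test was not. Where mutant spots were not well above background, the fold is a bound: the mean log2 control signal against, per array, the higher of the mutant signal and the lowest signal among probes well above background.

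Groups followed the sample labels. Replicates are described as biological, and each mutant is 1 strain. The p-values rest on the spread between arrays of the same strain, pooled for each feature over the 7 mutants with 2 arrays. They do not measure the spread of 1 mutant's own arrays or the spread between strains. Units named in the text are the 3 highest and 3 lowest called units of each mutant with 2 arrays, the 2 highest and 2 lowest of each mutant with 1, the 3 raised and 3 lowered in the most mutants, the lowest of each mutant relative to the other mutants, and the 2 highest and 2 lowest of each contrast. Members, lists and tests were chosen with earlier results of these data known. Gene order on the chromosomes was taken from RefSeq.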

Additional observations from a re-analysis of the deposited data

Results flagged for a closer look

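The difference between mutants was tested directly with limma in 5 pairs, and the 2 highest and 2 lowest called units of each pair are listed here for that difference. In units 171859, 152856 and 164623, which hold a lost run, 21.4%, 61.1% and 15.4% of the spots of the deleted mutant were well above background, so the sizes given for them depend on background signal and are not measured folds, and they check the deletion rather than compare mutants.

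Between *red1Δ* and *rrp6Δ*, unit 173128 differed by 1.82 (adjusted p = 0.00361), unit 164046 by 1.65 (adjusted p = 3.87e-04), unit 173794 by -3.64 (adjusted p = 2.53e-06) and unit 171859, which holds the probes lost in *red1Δ*, by -5.75 (adjusted p = 6.09e-08). On the slide that held replicate 2 of both mutants the differences were 1.18, 1.45, -3.29 and -5.92. Without replicate 1 of *red1Δ*, unit 173128 missed the threshold (1.43, adjusted p = 0.0573).

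Between *mtl1-17* and *red1Δ*, unit 171859 differed by 5.05 (adjusted p = 2.94e-07), unit 148645 by 1.58 (adjusted p = 0.00511), unit 164046 by -1.88 (adjusted p = 0.00136) and unit 167458 by -1.83 (adjusted p = 0.00887). Unit 148645 missed the threshold without replicate 1 of *red1Δ* (1.66, adjusted p = 0.0577) or replicate 2 of *mtl1-17* (1.27, adjusted p = 0.0773), and unit 167458 without either *red1Δ* array or replicate 2 of *mtl1-17* (-1.84 to -1.56). *mtl1-17* cells were grown at another temperature than *red1Δ* cells, and the allele and the temperature cannot be told apart in this pair beyond what each control removes.

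Between *pab2Δ* and *red1Δ*, unit 171859 differed by 5.54 (adjusted p = 9.70e-08), unit 148833 by 1.63 (adjusted p = 0.0179), unit 158916 by -2.74 (adjusted p = 0.00644) and unit 151573 by -2.53 (adjusted p = 4.89e-04). On the slide that held replicate 2 of both mutants the differences were 5.93, 1.57, -3.10 and -2.62. Unit 148833 missed the threshold without any 1 of the 4 arrays (1.57 to 1.70), and unit 158916 without either *red1Δ* array or replicate 2 of *pab2Δ* (-2.85 to -2.49).

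Between *cid14Δ* and *rrp6Δ*, unit 173938 differed by 3.12 (adjusted p = 0.00221), unit 151608 by 2.55 (adjusted p = 1.59e-04), unit 149233 by -3.06 (adjusted p = 1.33e-06) and unit 152856, which holds the probes lost in *cid14Δ*, by -3.84 (adjusted p = 1.11e-07).

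Between *sen1Δ* and *rrp6Δ*, unit 173938 differed by 4.61 (adjusted p = 1.46e-04), unit 148656 by 2.67 (adjusted p = 0.0199), unit 148861 by -3.75 (adjusted p = 8.47e-06) and unit 164623, which holds the probes lost in *sen1Δ*, by -4.14 (adjusted p = 1.95e-05). Unit 148656 missed the threshold without either *rrp6Δ* array or replicate 2 of *sen1Δ* (2.24 to 2.74).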

How the results depend on the processing

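Of 1020 values of the named units under alternative settings, 946 kept their direction and side of the threshold, 72 lost the call and 2 changed sign, all against 73 pairs of unit and comparison. With the median over the probes, unit 154012 stood at 0.027 in *rrp6Δ* (adjusted p = 0.902, limma) and unit 161202 at 0.0063 in the mean of the 9 mutants (adjusted p = 0.929). The cause of the changes below was not tested, except that longer runs, a higher threshold and a fold limit leave fewer units by construction.

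Slide as a fixed term gives each mutant the value fitted for a reference slide, not the mean of its arrays. With slide as a fixed term, 104 units were called in *red1Δ*, 147 in *pab2Δ*, 0 in *mtl1-17*, 1 in *cid14Δ*, 0 in *iss10Δ*, 0 in *rmn1Δ*, 176 in *mmi1Δ mei4-P572*, 91 in *sen1Δ*, 19 between *mtl1-17* and *red1Δ*, 204 between *cid14Δ* and *rrp6Δ* and 18 in the mean of the 9 mutants. With slide as a random block, 77 were called between *pab2Δ* and *red1Δ* and 1 in *rmn1Δ*. With the median over the probes, the counts were 340 in *red1Δ*, 230 in *pab2Δ*, 78 in *mtl1-17*, 110 in *cid14Δ* and 1 in *rmn1Δ*. In units of at least 5 probes they were 450 in *rrp6Δ*, 325 in *red1Δ*, 220 in *pab2Δ*, 80 in *mtl1-17*, 120 in *cid14Δ*, 7 in *iss10Δ*, 1 in *rmn1Δ*, 109 in *sen1Δ*, 23 between *mtl1-17* and *red1Δ*, 18 between *pab2Δ* and *red1Δ*, 206 between *cid14Δ* and *rrp6Δ*, 269 between *sen1Δ* and *rrp6Δ* and 427 in the mean. With a change of at least 1 on the log2 scale required, they were 145 in *rrp6Δ*, 101 in *red1Δ*, 70 in *pab2Δ*, 18 in *mtl1-17*, 27 in *cid14Δ*, 6 in *iss10Δ*, 23 in *mmi1Δ mei4-P572* and 22 in *sen1Δ*. A threshold 1 log2 unit higher gave 253 in *pab2Δ*, 1 in *rmn1Δ*, 30 in *mmi1Δ mei4-P572* and 19 between *mtl1-17* and *red1Δ*. The series table gave 86 in *sen1Δ* and 1 in *rmn1Δ*, normexp with loess gave 26 between *mtl1-17* and *red1Δ*, and either other centring gave 1 in *rmn1Δ*. With both *iss10Δ* arrays left out, chosen after seeing the data, 6 were called in *rmn1Δ*, 80 in *mmi1Δ mei4-P572*, 79 between *mtl1-17* and *red1Δ* and 75 between *pab2Δ* and *red1Δ*.

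The share of calls that were higher moved with the centring. It was 65.2% in *rrp6Δ*, against 35.6% without centring and 53.2% with the median of all probes at 0. It was 53.9%, 51.5% and 79.9% in *red1Δ*, 57.0%, 65.8% and 86.2% in *pab2Δ*, 67.2%, 53.1% and 67.5% in *mtl1-17*, 59.9%, 56.8% and 79.7% in *cid14Δ*, 69.6%, 43.6% and 68.4% in *mmi1Δ mei4-P572*, 74.3%, 50.7% and 14.03% in *sen1Δ* and 60.3%, 42.8% and 64.1% in the mean, in the same order of settings. The mean of the sparse units was -0.011 without centring (exact p = 0.480) and 0.049 with the median of all probes at 0 (exact p = 0.227). Under these settings it is not a difference from the dense units. The mean difference between sparse and dense units was 0.023 with normexp and loess (exact p = 0.0859). With the median over the probes it was 0.022 (exact p = 0.156).

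With 1 array left out, the counts ran from 384 to 484 in *rrp6Δ*, 170 to 307 in *red1Δ*, 125 to 159 in *pab2Δ*, 30 to 42 in *mtl1-17*, 48 to 86 in *cid14Δ*, 13 to 19 in *iss10Δ*, 16 to 140 in *sen1Δ*, 59 to 187 between *red1Δ* and *rrp6Δ*, 6 to 13 between *mtl1-17* and *red1Δ*, 6 to 17 between *pab2Δ* and *red1Δ*, 207 to 280 between *cid14Δ* and *rrp6Δ*, 289 to 365 between *sen1Δ* and *rrp6Δ* and 613 to 751 in the mean, and the mean difference from 0.035 to 0.048. A mutant left with 1 array is assumed to vary like the others. Whether replicate numbers pair the arrays was not settled. Same-numbered deviations correlated above 0.1 in 7 of 21 pairs of mutants (-0.40 to 0.66). The highest value was that of *red1Δ* and *iss10Δ*, whose replicate 1 arrays share a slide. With the replicate number as a block, 728 units were called in *rrp6Δ*, 525 in *red1Δ*, 390 in *pab2Δ*, 139 in *mtl1-17*, 208 in *cid14Δ*, 15 in *iss10Δ*, 2 in *rmn1Δ*, 52 in *mmi1Δ mei4-P572*, 179 in *sen1Δ* and 700 in the mean.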

Other observations

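Some values bear on units that were lowest in 1 mutant without being a lost run. Unit 151944 had -0.39 and -0.85 in *mtl1-17* (adjusted p = 0.0155, limma), while the 14 other arrays ran from 0.13 to 2.20 and 6 other mutants called it higher. Unit 150943 had -1.33 in *rmn1Δ* (adjusted p = 0.170), where the 15 other arrays ran from -0.38 to 2.86 and 6 mutants called it higher. Unit 161669 had -2.09 in *mmi1Δ mei4-P572* (adjusted p = 0.0551), against -1.22 to 1.54 on the other arrays.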
